A study of Homo sapiens with 6 samples.

Results

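The libraries of this series carry a number, 1 or 2, within each of 3 cell lines, and the comparison here sets the 3 libraries numbered 2 against the 3 numbered 1. All 6 libraries of the series entered it, so that each line gave 1 library to each side and served as its own control. The lines were MKN45, an established line of human gastric tumour cells that the labels call sensitive, and the derivatives HER2R and CEAR. HER2R, whose source is given as MKN45-HER2, is resistant to a T cell bispecific antibody (TCB) directed at HER2, and CEAR, with the source MKN45-CEAR, to a TCB directed at CEACAM5. All 3 grew in the same serum-containing medium with no treatment, and total RNA was sequenced after depletion of ribosomal RNA. The labels call the numbers rep1 and rep2 and say nothing else that sets them apart, such as a passage, a day or a density. Each resistance is represented by a single derivative, and whether that is a clone is not stated. No label gives a separate culture for each library, so a p-value here speaks of the spread among these 6 samples alone, which may be technical.

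Several programmes of cultured epithelial tumour cells can be read from such libraries. Mitotic genes, which build the spindle, the kinetochore and the midbody, are transcribed late in the cell cycle, and replication genes before and during S phase. The enzymes of cholesterol and fatty acid synthesis are induced together by the SREBP transcription factors when cells are short of sterol and are shut off when sterol is plentiful. Mucins, trefoil peptides and CEACAM glycoproteins mark the mature surface epithelium of stomach and gut.

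Library totals ran from 39657353 to 57964246 counts, and a single count equalled 0.0177 to 0.0255 CPM (the count scaled to library size, here with TMM factors). The ribosomal RNA precursor took 8.88% to 10.7% of counts, and the sum over 5 abundant noncoding RNAs was 11.2% to 12% in number 1 and 11.1% to 14% in number 2. Epithelial markers were high throughout, with a summed level of 8510 to 12200 CPM in number 1 and 10200 to 15900 CPM in number 2. Of 8 T and NK cell markers, 4 (CD3D, CD2, GZMB and NKG7) had 0 counts in all 6 libraries, where a count of 0 allows up to 0.0531 to 0.0765 CPM per library, and the list summed to 0.0354 to 0.0723 CPM in number 1 and 0.128 to 0.205 CPM in number 2. The 6 fibroblast markers, of which COL3A1 and DCN were at 0, summed to 1.81 to 7.67 and 0.978 to 3.55 CPM, and the 5 endothelial ones, of which CDH5 and KDR were at 0, to 0.0177 to 0.255 and 0.0225 to 0.23 CPM. The 6 myeloid markers, of which CSF1R and TYROBP were at 0, summed to 365 to 910 CPM in number 1 and 403 to 1200 CPM in number 2, and nearly all of that was LYZ, the lysozyme gene that gastric cells also use.

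Genes in several groups differed between the numbers with line as a block. After removal of symbols with low counts 14958 of 29744 remained, and each was tested by edgeR's quasi-likelihood method with line as a block. Called means an adjusted p below 0.05, with adjustment over all 14958. Number 2 was higher for 1395 genes (9.33%) and lower for 1098 (7.34%), and 2457 of these 2493 had steps of one sign in all 3 lines, which the blocked test itself favours. Over all tested genes 7809 (52.2%) had steps of one sign. The shares of 9.33% higher and 7.34% lower are the background for every list count below. Changes over 2-fold were more often rises, with 559 against 104. Genes that rose had the lower level, with a median of 12.5 CPM against 59.9 CPM for those that fell and 21 CPM for all tested genes. Line itself took 71.4% of the sum of squares of log levels, the number 17.9% and the remainder 10.7%. Without the replicate block that pairs the libraries of a line, 0 genes were called by edgeR, and 1247 had an unadjusted p under 0.05.

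The step, meaning log2 of number 2 over number 1 within a line, has no replicate in a single line and is given as a value. Over the tested genes, which are no independent replicates of one another, the steps correlated at 0.575 between CEAR and MKN45, 0.40 between HER2R and MKN45 and 0.392 between HER2R and CEAR. The SD of the steps was 0.545 in HER2R, 0.62 in CEAR and 0.629 in MKN45. In every line at once, 584 genes (3.9%) were higher by 1.5-fold or more and 160 (1.07%) lower, a count with no test. How many of all tested genes had numbers without overlap was not counted, so such statements below describe single genes. Nor was it counted how many of all tested genes had their lowest step in a given line, so such counts below have no background. Transcript length moved with the direction over the 13311 tested genes (89%) with a known transcript. In the longest of 4 equal bins of length 14.5% were called lower and 7.57% higher, and in the shortest 3.73% and 12.2%. In the highest of 4 bins of GC content 12.8% were called higher and 6.52% lower, and in the lowest 6.4% and 9.07%. The part of length and GC content in the results was not tested.

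The mitotic genes fell almost as a block, and 5 of them are shown first with their promoters, chosen to show the short motifs that most of the list carries there. The cell cycle homology region (CHR, letters TTTGAA) and the CCAAT box are elements described in promoters of late cell cycle genes. Promoter windows from 250 bases before to 50 after the start site, from RefSeq on GRCh38.p14, were matched for 39 of the 46 tested genes of the G2/M list. TTTGAA on either strand stood in 27 of these 39 (69.2%), against 15.4% of all 27305 windows of that length and 9.41% of those of tested genes, and CCAAT in 30 (76.9%) against 35.7%. Both stood in 22 (56.4%) against 6.08%. The stretches below read 5′ to 3′ on the strand of the gene, and capitals mark TTTGAA and CCAAT or their reverse complements TTCAAA and ATTGG. In MKI67 one CHR match overlaps a CCAAT match. The stretches lie at chr10:128126424-128126541 (MKI67, minus strand), chr16:23678796-23678885 (PLK1, plus strand), chr15:69414265-69414319 (KIF23, plus strand), chr15:90994536-90994608 (PRC1, minus strand) and chr1:197146670-197146823 (ASPM, minus strand).
MKI67: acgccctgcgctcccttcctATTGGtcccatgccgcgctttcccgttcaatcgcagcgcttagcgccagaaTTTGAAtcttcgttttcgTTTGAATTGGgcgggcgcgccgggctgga
PLK1: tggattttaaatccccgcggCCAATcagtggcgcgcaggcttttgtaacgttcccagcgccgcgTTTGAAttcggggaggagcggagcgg
KIF23: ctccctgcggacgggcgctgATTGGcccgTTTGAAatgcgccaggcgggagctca
PRC1: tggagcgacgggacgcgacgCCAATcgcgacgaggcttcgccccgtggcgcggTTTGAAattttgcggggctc
ASPM: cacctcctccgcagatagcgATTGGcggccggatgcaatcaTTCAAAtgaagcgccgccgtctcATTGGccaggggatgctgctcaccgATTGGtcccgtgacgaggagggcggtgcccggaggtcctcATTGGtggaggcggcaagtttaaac
A match of letters is a description and not a bound factor. CDK1, the kinase that drives mitosis, has both motifs in its window and was not called (log2 fold change -0.08, edgeR adjusted p = 0.636), and neither was SPC25, a kinetochore protein with both (-0.2, edgeR adjusted p = 0.187). CENPE, with the largest fall of the list, has neither motif in its window.

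Of the 46 tested G2/M and mitosis genes, 43 fell, 0 rose and 3 were not called (CDK1, SPC25 and UBE2C), with a median log2 fold change of -0.71 against 0.02 over all tested genes. At an unadjusted p under 0.05 the count of rises was 0 as well. MKI67, the proliferation antigen Ki-67 (chromosome 10, 128096659 to 128126385 on GRCh38), stood at 949, 730.0 and 793 CPM in number 1 of HER2R, CEAR and MKN45 and at 463, 361 and 352 CPM in number 2. The highest number 2 library lay below the lowest number 1 library, and the log2 fold change was -1.07, SE 0.103, edgeR adjusted p = 0.00124. CCNB1, the cyclin of entry into mitosis, was at 272, 222 and 344 CPM in number 1 and at 163, 97.7 and 140.4 CPM in number 2, again without overlap (log2 fold change -1.07, SE 0.117, edgeR adjusted p = 0.00178). PLK1, a kinase that builds the spindle, went from 152, 223 and 278 CPM to 76.6, 84.4 and 96.6 CPM (-1.31, SE 0.113, edgeR adjusted p = 0.00089). In bulk libraries such as these, fewer cells of a type and less RNA per cell cannot be told apart.

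CENPE, a kinesin that moves chromosomes to the spindle equator, changed most in the list, from 172, 137 and 142 CPM in number 1 of HER2R, CEAR and MKN45 to 68.9, 48 and 46.4 CPM in number 2 (log2 fold change -1.48, SE 0.0905, edgeR adjusted p = 0.000257). ASPM, a protein of the spindle poles, KIF20A, a kinesin of the spindle midzone, and CENPF, a kinetochore protein, followed at -1.44, -1.4 and -1.4. KIF23 and PRC1, which organise the midzone and are among the promoters shown, fell by less (-0.67, edgeR adjusted p = 0.00321 and -0.62, edgeR adjusted p = 0.00559). PIF1, a DNA helicase outside the list, had the largest fall among protein-coding genes at 5 CPM or more, from 22.1, 20.1 and 21.6 CPM to 5.38, 4.58 and 4.3 CPM (-2.16, SE 0.135, edgeR adjusted p = 0.000257). No library of number 2 reached the level of number 1 for CENPE or PIF1.

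The mitotic fall was present in each line, with a median step of -0.5 in HER2R, -0.74 in CEAR and -0.86 in MKN45, and 44 of the 46 genes had a negative step in all 3. The summed level of the list went from 7188 to 4553 CPM in HER2R, from 6474 to 3679 in CEAR and from 7091 to 3705 in MKN45. By 1.5-fold or more in every line, 18 of the 46 were lower, beside 1.07% of all genes. Leaving out a library takes the step of its line from the fit, and between 34 and 42 of the 46 were then called lower.

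**Figure D1:**
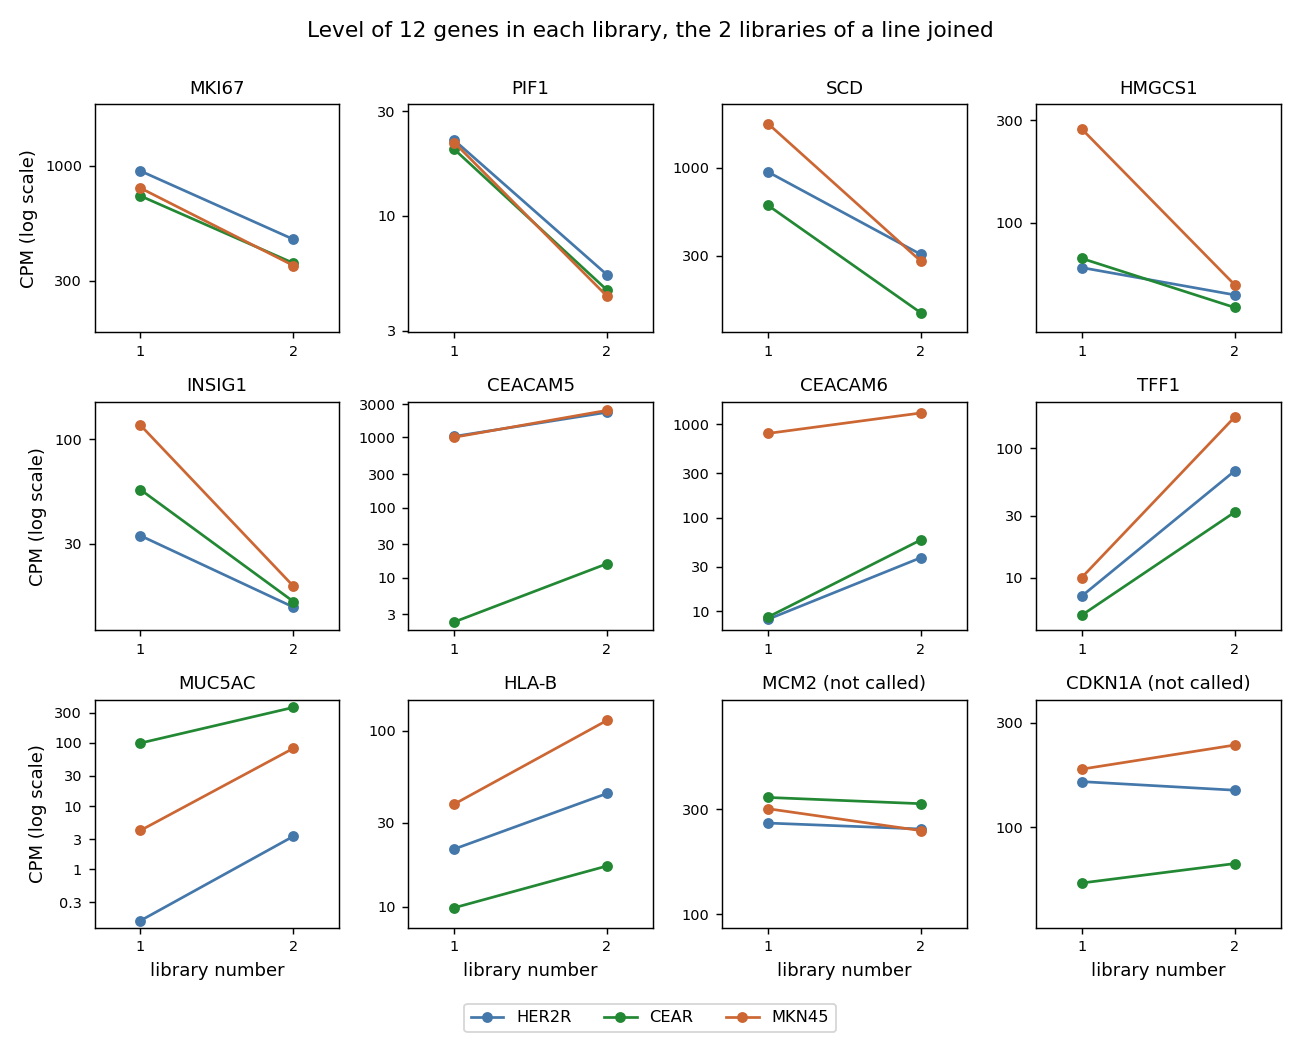
Level of 12 genes in CPM (log scale, each panel with its own range) in libraries number 1 and 2, each line in its own colour with its 2 libraries joined. MKI67, PIF1, SCD, HMGCS1 and INSIG1 fall and CEACAM5, CEACAM6, TFF1, MUC5AC and HLA-B rise in all 3 lines, while MCM2 and CDKN1A were not called.

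Replication genes were called about as often as genes at large, of which 9.33% were higher and 7.34% lower. Of 46 G1/S and DNA replication genes 4 rose, 3 fell and 39 were not called, with a median of -0.05. MCM2, a subunit of the replicative helicase, was at 260.0, 340.2 and 302 CPM in number 1 of HER2R, CEAR and MKN45 and at 244, 319 and 240.2 CPM in number 2. These ranges overlapped (log2 fold change -0.17, SE 0.0926, edgeR adjusted p = 0.236). CCNE2, a cyclin of the G1/S transition, rose from 15.2, 19.3 and 14.7 CPM to 28.1, 31.2 and 21.4 CPM (0.7, SE 0.113, edgeR adjusted p = 0.00698), and its step was positive in each line. Its relative CCNE1 (0.43) and the transcription factors E2F1 (0.36) and E2F2 (0.36) rose by less. CCNE1 lost its call without either HER2R library or either CEAR library (edgeR adjusted p = 0.161 at most), E2F1 without either HER2R library, either CEAR library or MKN45 library 1 (edgeR adjusted p = 0.333 at most) and E2F2 without either CEAR library or either MKN45 library (edgeR adjusted p = 0.333 at most). POLE, the leading-strand polymerase (-0.52), TK1, a thymidine kinase (-0.44), and GINS2, a helicase subunit (-0.36), fell. POLE lost its call without either MKN45 library (edgeR adjusted p = 0.0703 at most), TK1 without CEAR library 1 or either MKN45 library (edgeR adjusted p = 0.0936 at most) and GINS2 without either CEAR library or either MKN45 library (edgeR adjusted p = 0.203 at most). With no filter on low counts E2F1, E2F2 and GINS2 were not called either (edgeR adjusted p = 0.0671, 0.0671 and 0.0584). The median step was 0.07 in HER2R, 0.11 in CEAR and -0.25 in MKN45, and MKN45 had the lowest step in 41 of the 46.

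The promoters of the replication list carried other letters. TTTCGCGC or TTTGGCGC, forms of the E2F site, stood on either strand in 12 of 39 windows (30.8%). This compares with 1.18% of all windows, 1.97% of those of tested genes and 2 of 39 (5.13%) in the G2/M list. TTTGAA stood in 1 of the 39 (2.56%).

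Replication-dependent histone genes, which are expressed in S phase and give messages without a poly(A) tail, fell in 26 of 58 tested members, rose in 1 and were not called in 31, with a median of -0.39. HIST1H3J, for histone H3, was at 113, 151 and 123 CPM in number 1 of HER2R, CEAR and MKN45 and at 51.4, 104 and 52.9 CPM in number 2 (log2 fold change -0.97, SE 0.133, edgeR adjusted p = 0.00405). CEAR had the smallest of these steps, and the median step of the list was -0.5 in HER2R, -0.11 in CEAR and -0.57 in MKN45. The count of falls came down to 8 without an MKN45 library and 11 without a HER2R library, and DESeq2 called 32. Among all tested genes 7.34% were lower. Histone genes include near-identical copies, so the split of reads between them is uncertain. HIST2H4A fell (-1.4) while its copy HIST2H4B rose (1.4), and without a HER2R library the latter was 0.81 at the least. DESeq2 did not call HIST2H4B (adjusted p = 0.101). HIST2H4A lay between -1.0 and -1.9 with a library left out.

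Inhibitors of the cell cycle showed no common rise. Of 26 CDK inhibitors and growth arrest genes 4 rose, 1 fell and 21 were not called, with a median of 0.14. CDKN1A, the p21 inhibitor that p53 induces, was at 162, 55.8 and 184 CPM in number 1 of HER2R, CEAR and MKN45 and at 148, 68.4 and 237 CPM in number 2. It was lower in number 2 of HER2R and higher in number 2 of the other lines (log2 fold change 0.18, SE 0.109, edgeR adjusted p = 0.3), and without a HER2R library it was called at 0.33 at most (edgeR adjusted p = 0.0466 without library 1 and 0.0457 without library 2). TXNIP, an arrestin-like protein that restrains glucose uptake, rose from 108, 47.5 and 46.6 CPM to 243, 142 and 200.2 CPM, with no overlap (1.61, SE 0.159, edgeR adjusted p = 0.00126). The antiproliferative genes BTG1 (0.51) and BTG2 (0.6) and the transcription factor KLF4 (0.43) also rose. BTG1 was no longer called without either CEAR library (edgeR adjusted p = 0.1 at most), BTG2 without either CEAR library or either MKN45 library (edgeR adjusted p = 0.0958 at most) and KLF4 without either CEAR library or either MKN45 library (edgeR adjusted p = 0.114 at most). CCNG1, a cyclin induced by p53, fell (-0.77, edgeR adjusted p = 0.00348). Of 25 p53 targets 2 rose, 3 fell and 20 were not called. Both lists stood beside 9.33% of all tested genes higher and 7.34% lower.

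Genes of cholesterol synthesis and uptake had the lowest median of all lists with 8 or more tested members, at -0.87. Of 31, 20 fell, 1 rose and 10 were not called. INSIG1, which retains the SREBP complex in the endoplasmic reticulum and is itself an SREBP target, went from 33, 55.9 and 117 CPM in number 1 of HER2R, CEAR and MKN45 to 14.5, 15.5 and 18.5 CPM in number 2. The ranges did not overlap (log2 fold change -1.92, SE 0.235, edgeR adjusted p = 0.00262). HMGCS1, which makes the precursor HMG-CoA (chromosome 5, 43289395 to 43313512), went from 62.1, 68.5 and 273 CPM to 46.4, 40.6 and 51.7 CPM (-1.19, SE 0.323, edgeR adjusted p = 0.04). Its MKN45 number 1 library stood far above the other 5, and with a library left out the log2 fold change lay between -0.59 without an MKN45 library and -1.6 without a HER2R library. Its call was lost with DESeq2 (adjusted p = 0.147) and with no filter on low counts (edgeR adjusted p = 0.0533).

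DHCR7, the reductase of the last step, fell too (-1.59, edgeR adjusted p = 0.0039). SQLE, the squalene epoxidase, fell by 1.43 on the log2 scale (edgeR adjusted p = 0.0182), and its value was -0.9 at the least with an MKN45 library left out. SREBF2, the transcription factor of the pathway, went from 102, 123 and 176 CPM in number 1 of HER2R, CEAR and MKN45 to 68, 77 and 104 CPM in number 2 (log2 fold change -0.68, SE 0.0818, edgeR adjusted p = 0.0025). The 2 ranges overlapped slightly, since MKN45 number 2 lay just above HER2R number 1. SCAP, its escort protein, was not called (-0.09, edgeR adjusted p = 0.448). PMVK, a kinase of the mevalonate arm, was the member that rose, from 16, 11.5 and 13.5 CPM to 23.2, 19.1 and 22.6 CPM (0.67, SE 0.114, edgeR adjusted p = 0.00811). Of 12 LXR targets and sterol efflux genes 2 rose, 1 fell and 9 were not called, and the one that fell was NPC1, which exports cholesterol from lysosomes (-0.77, edgeR adjusted p = 0.00352).

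The sterol regulatory element was searched as TCACNCCAC on both strands of the promoter windows. In the cholesterol list it stood in 1 of 24 windows (4.17%), that of SREBF2, against 1.15% of all windows. In the fatty acid list it stood in 1 of 23 windows (4.35%), that of MID1IP1, which was not called (log2 fold change 0.13, edgeR adjusted p = 0.316). Each of these shares rests on 1 window. The SREBF2 match is shown because it lies in the gene of the pathway's own factor. It is at chr22:41832952-41833000 on the plus strand, given 5′ to 3′ with the element in capitals.
SREBF2: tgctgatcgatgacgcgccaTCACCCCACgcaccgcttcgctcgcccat
CCAAT stood in 17 of the 24 (70.8%) against 35.7% of all. Where the letters were not found, nothing follows about the factor.

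Some fatty acid synthesis genes fell. Of 26, 12 fell, 1 rose and 13 were not called, with a median of -0.39. SCD, the desaturase that makes oleate (chromosome 10, 100347124 to 100364834), went from 943, 598 and 1825 CPM in number 1 of HER2R, CEAR and MKN45 to 306, 138 and 279 CPM in number 2, with no overlap (log2 fold change -2.15, SE 0.194, edgeR adjusted p = 0.00108). FASN, the fatty acid synthase, went from 755, 568 and 875 CPM to 424, 315 and 303 CPM (-1.07, SE 0.15, edgeR adjusted p = 0.0043). ACACA, which makes malonyl-CoA for that enzyme, fell almost evenly in the 3 lines, from 161, 121 and 180.0 CPM to 77.3, 60.4 and 77.1 CPM (-1.09, SE 0.0851, edgeR adjusted p = 0.000482). The ranges of FASN and of ACACA did not overlap either. FADS2, a desaturase of polyunsaturated fatty acids, fell (-1.88, edgeR adjusted p = 0.0139), with -1.12 as its smallest value when an MKN45 library was left out. The lipase-like PNPLA3 fell (-1.22, edgeR adjusted p = 0.0241) and lost its call without either MKN45 library (edgeR adjusted p = 0.244 at most). As few as 7 members of the list were called lower without an MKN45 library. SREBF1, the factor of the fatty acid arm, fell (-0.91, edgeR adjusted p = 0.00138). SCD5, another desaturase gene, rose (0.44, edgeR adjusted p = 0.0422), a call that was lost without either HER2R library, either CEAR library or either MKN45 library (edgeR adjusted p = 0.18 at most) and with library size alone as the scaling (edgeR adjusted p = 0.0502).

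Some genes of fatty acid oxidation and storage rose. Of 24, 5 rose, 0 fell and 19 were not called, and 2 were lower at an unadjusted p under 0.05. DGAT2, which adds the last acyl chain of a triglyceride, rose from 18.4, 16.8 and 25.3 CPM in number 1 of HER2R, CEAR and MKN45 to 35.2, 35 and 47.2 CPM in number 2, without overlap (log2 fold change 0.96, SE 0.0963, edgeR adjusted p = 0.00134). ANGPTL4, an inhibitor of lipoprotein lipase, rose from 0.79, 0.506 and 0.159 CPM to 6.25, 1.42 and 0.318 CPM (2.29, edgeR adjusted p = 0.00882), mostly in HER2R, and lost its call without either HER2R library (edgeR adjusted p = 0.0751 at most), with a smallest value of 1.33. PPARA, a receptor for fatty acids, rose (0.5) and was no longer called without either CEAR library or either MKN45 library (edgeR adjusted p = 0.122 at most).

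The lipid step was deepest in MKN45. The cholesterol list had a median step of -0.41 in HER2R, -0.67 in CEAR and -1.52 in MKN45, and MKN45 had the lowest step in 26 of the 31 genes. Its summed level was 2205 and 2425 CPM in number 1 of HER2R and CEAR and 4331 CPM in number 1 of MKN45, while number 2 lay at 1609, 1569 and 1599 CPM. MKN45 thus stood above the other lines in number 1 and beside them in number 2. The fatty acid list had median steps of -0.31 in HER2R, -0.11 in CEAR and -0.74 in MKN45, with the lowest in MKN45 for 21 of 26, and summed to 3975, 2934 and 5514 CPM in number 1 and 2629, 1909 and 2178 CPM in number 2. SREBF1 was an exception, with its smallest step in MKN45. MKN45 also had the lowest step in 77 of 78 cytosolic ribosomal protein genes and 41 of 46 replication genes, but in 4 of 25 p53 targets. A lowest step in MKN45 was thus not particular to the lipid genes, and its share over all tested genes was not counted.

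A test of whether the step of a line departs from the step the other lines share, called 32 genes for MKN45 (0.214% of tested genes). That line gives a single step, and the spread comes from the disagreement of the other lines (1 residual degree of freedom) with the variance shared over genes, so a gene on which those lines happen to agree is called more readily. Of the 31 cholesterol genes 8 were among them (such as CYP51A1, DHCR7, FDPS, HMGCS1, LSS and SQLE), and of the 26 fatty acid genes 3 (ACSL1, FADS1 and FADS2), each with the deeper fall in MKN45. The step of HMGCS1 differed by -1.81, SE 0.207, edgeR adjusted p = 0.00327, and that of FADS2 by -2.01, SE 0.205, edgeR adjusted p = 0.00129. Both were called under each of the 5 other settings tried. With RLE size factors, library size alone or a filter at 1 CPM, HMGCS1 was the 1 cholesterol gene called, and DESeq2 called 8 and limma-voom 10. Over all genes the 32 calls came down to 5, 3 and 3 under the first 3 of these settings.

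**Figure D2:**
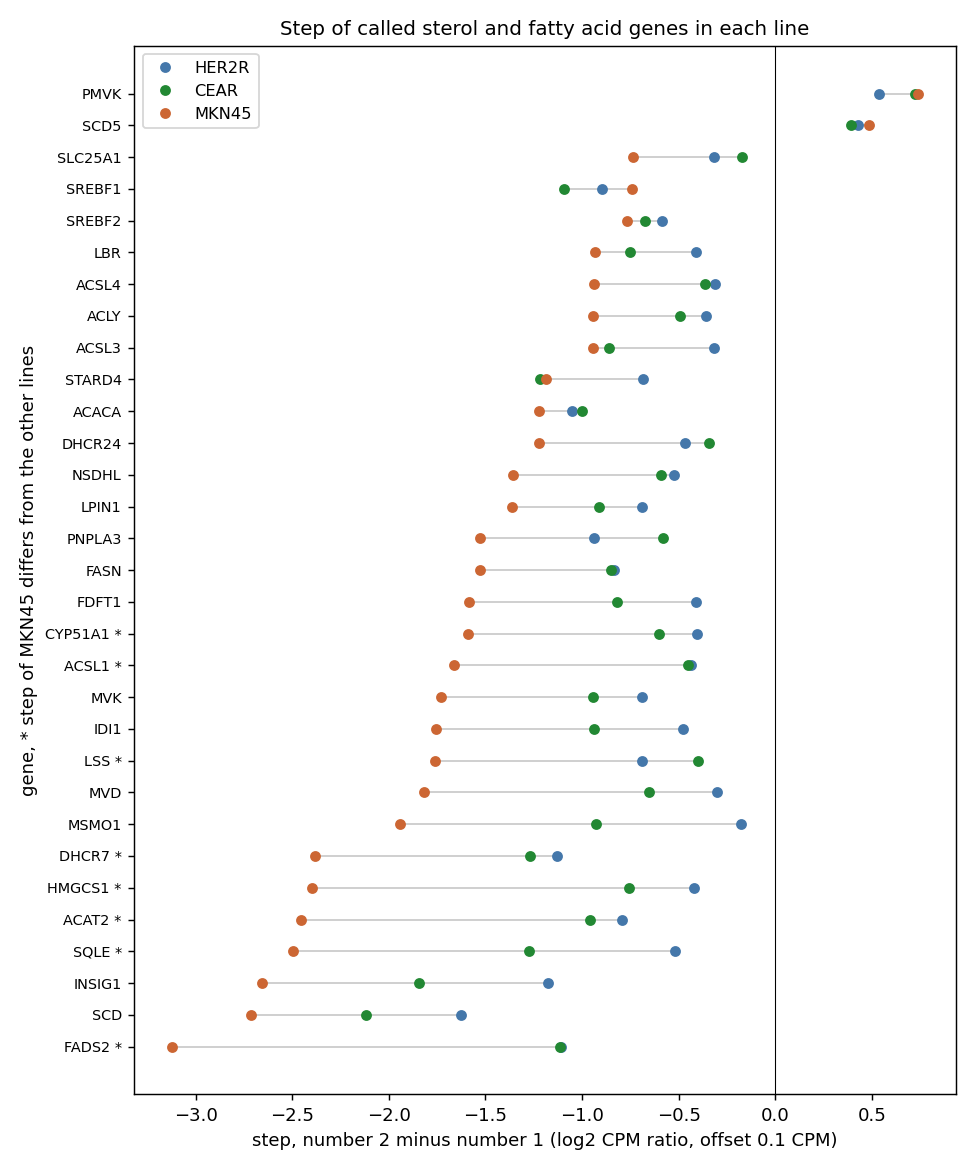
Step in each line (x axis, log2 CPM ratio of number 2 over number 1 with an offset of 0.1 CPM) for called sterol and fatty acid genes, 1 per row in order of the MKN45 step, with a star where the MKN45 step departed from the other lines. MKN45 lies left of the other lines in most rows, down to -3.12 for FADS2, while PMVK and SCD5 lie right of 0 in all 3.

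Genes of the mature gastric surface rose in part. Of 30 gastric differentiation genes 17 passed the filter on low counts. Of these 17, 7 rose, 1 fell and 9 were not called, with a median of 0.65. A gene that passed the filter mainly through number 2 can hardly be called lower and would add to the rises. How many of the 17 did so was not counted. TFF1, a trefoil peptide secreted with gastric surface mucus (chromosome 21, 42362282 to 42366594), was at 7.24, 5.16 and 10.1 CPM in number 1 of HER2R, CEAR and MKN45 and at 66.7, 32.1 and 174 CPM in number 2. The lowest number 2 library lay above the highest number 1 library (log2 fold change 3.37, SE 0.244, edgeR adjusted p = 0.000346). TFF2, the trefoil peptide of mucous neck cells, a neighbour of TFF1 on chromosome 21 (42346357 to 42351128), rose from 0.0255, 1.78 and 0.177 CPM to 0.714, 14.6 and 3.3 CPM (3.34, SE 0.301, edgeR adjusted p = 0.00089). MUC5AC, the mucin of the surface cells, was at 0.153, 99.6 and 4.11 CPM in number 1 and at 3.32, 366 and 82.1 CPM in number 2. It was higher in number 2 of each line (3.04, SE 0.447, edgeR adjusted p = 0.00505), and CEAR number 1 already lay above number 2 of the other lines. Without a CEAR library the log2 fold change was up to 4.33 for MUC5AC and 4.25 for TFF2. In number 1 of HER2R the level of TFF2 was a single count, so its fitted value depends in part on the prior count.

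VSIG1, a junctional protein of the stomach (1.29, edgeR adjusted p = 0.0011), SULT1C2, a sulfotransferase (1.69, edgeR adjusted p = 0.00813), and TSPAN1, a tetraspanin (1.06, edgeR adjusted p = 0.022), rose as well. The step of TSPAN1 was smaller in HER2R than in the other lines, as given below. PSCA, a surface antigen of stomach and prostate, rose mainly in CEAR, from 1.18 to 21.6 CPM (3.6, edgeR adjusted p = 0.00289), with 2.15 as its smallest value when a CEAR library was left out. FOXA2, a transcription factor of foregut epithelium, was the member that fell (-0.44, edgeR adjusted p = 0.0175), a call lost without either MKN45 library (edgeR adjusted p = 0.0803 at most). Between 7 and 8 members of the gastric list were higher with any library left out.

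Many intestinal genes rose among those that passed the filter on low counts, which were 25 of 38. Of 25 tested, 15 rose, 0 fell and 10 were not called, with a median of 0.9, and 1 was lower at an unadjusted p under 0.05. By 1.5-fold or more in every line, 9 were higher, beside 3.9% of all genes. As in the gastric list, genes that passed the filter mainly through number 2 add to the rises and can hardly add to the falls. How many of the 25 did so was not counted. FCGBP, a mucus protein that binds the Fc part of IgG, went from 9.3, 76.1 and 22.7 CPM in number 1 of HER2R, CEAR and MKN45 to 37.7, 287 and 83.4 CPM in number 2, a nearly equal step in each line (log2 fold change 1.93, SE 0.085, edgeR adjusted p = 6.31e-05). CDH17, a cadherin of intestinal epithelium, went from 2.47, 0.386 and 33.5 CPM to 8.11, 2.72 and 149 CPM (2.09, SE 0.16, edgeR adjusted p = 0.000478). For both genes the lines differed by more than the numbers. DPP4, a brush-border peptidase, went from 19.95, 12.3 and 22.8 CPM to 52.3, 38.7 and 94.1 CPM, without overlap (1.71, SE 0.132, edgeR adjusted p = 0.000478). CDX2, the transcription factor that sets intestinal identity, rose from 5.15, 4.19 and 9.73 CPM to 8.03, 10.7 and 19.6 CPM (1.0, SE 0.167, edgeR adjusted p = 0.00788).

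REG4, a secreted lectin (1.21, edgeR adjusted p = 0.00121), TSPAN8, a tetraspanin (1.09, edgeR adjusted p = 0.00174), and MYO1A, the brush-border myosin (1.78, edgeR adjusted p = 0.0195), were higher too. HNF4A, another transcription factor of gut epithelium, was not called (edgeR adjusted p = 0.995, SE 0.083). VIL1, the actin bundler of the brush border, was not called (-0.34, edgeR adjusted p = 0.084). PHGR1, a small protein of gut epithelium, rose (3.5, edgeR adjusted p = 0.00138) but lost its call without either MKN45 library (edgeR adjusted p = 0.0608 at most), where its value was 1.94 at the least. KRT20, a keratin of mature gut cells, had 4 and 8 counts in HER2R, 0 and 1 in CEAR and 4 and 41 in MKN45, in the order number 1 and 2, and did not pass the filter. Between 11 and 16 of the list were higher with a library left out.

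Surface glycoproteins and barrier genes had the highest median of the lists with 8 or more tested members, at 1.0. Of 26 such genes 21 passed the filter on low counts. The list shares PSCA with the gastric list and OLFM4 with the stem cell list. Of 21, 15 rose, 0 fell and 6 were not called, with 0 lower at an unadjusted p under 0.05, and 11 were higher by 1.5-fold or more in every line. CEACAM5, the antigen of the TCB that CEAR resists (chromosome 19, 41708585 to 41729798), was at 1036, 2.34 and 1007 CPM in number 1 of HER2R, CEAR and MKN45 and at 2289, 15.9 and 2441 CPM in number 2. Each line was higher in number 2, and CEAR stayed far below the other lines in both (log2 fold change 1.55, SE 0.259, edgeR adjusted p = 0.00788). Its step in CEAR differed from that of the other lines by 1.55, SE 0.492, edgeR adjusted p = 1, and was not called. CEACAM6, a neighbour on the same chromosome (41750977 to 41772208), was at 8.23, 8.7 and 801 CPM and then at 37.5, 58.2 and 1325 CPM (1.81, SE 0.328, edgeR adjusted p = 0.0102). MKN45, where CEACAM6 was highest, had the smaller step, by a difference of -1.74, SE 0.248, edgeR adjusted p = 0.0185, and that call was lost with RLE size factors, library size alone or a filter at 1 CPM (edgeR adjusted p = 0.135 at most). Without an MKN45 library the log2 fold change of CEACAM6 was up to 2.47. Genes of this family are close in sequence, and the split of reads between them is uncertain.

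MUC1, a transmembrane mucin, went from 153, 119 and 225 CPM in number 1 of HER2R, CEAR and MKN45 to 243, 282 and 454 CPM in number 2, so that every number 2 library lay above every number 1 library (log2 fold change 0.98, SE 0.118, edgeR adjusted p = 0.00246). PIGR, the receptor that carries polymeric immunoglobulin across epithelium, had the largest fitted value of the list, from 0.102, 0.121 and 0 CPM to 6.2, 6.0 and 0.432 CPM (5.79, SE 0.402, edgeR adjusted p = 0.000257). At so few counts in number 1 the fitted value depends on the prior count. PIGR passed the filter on low counts through number 2 alone. A gene that enters this way can hardly be called lower, so such genes add to the rises of a list. The calcium-binding proteins S100P (1.12, edgeR adjusted p = 0.00232) and S100A4 (1.15, edgeR adjusted p = 0.00627) rose. S100A4 is on the mesenchymal list and lost its call without CEAR library 1 (edgeR adjusted p = 0.0665 at most). Between 10 and 13 of the list were higher with a library left out, the fewest without a CEAR library.

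Of the 8 markers of the epithelium itself 2 rose (KRT19 and ELF3), 0 fell and 6 were not called. The claudins CLDN3 and CLDN4 had a negative step in all 3 lines, and the lowest log2 fold change of these markers was -0.35. EPCAM, the epithelial adhesion molecule, was not called (0.2, edgeR adjusted p = 0.212). Of 9 keratins 3 rose, 0 fell and 6 were not called. KRT7, a keratin of simple epithelia, went from 151, 185 and 139 CPM in number 1 of HER2R, CEAR and MKN45 to 300.2, 324 and 359 CPM in number 2 (log2 fold change 1.06, SE 0.117, edgeR adjusted p = 0.00185), and each number 2 library lay above all of number 1. KRT19 (0.7, edgeR adjusted p = 0.00945) rose and lost its call without either CEAR library (edgeR adjusted p = 0.173 at most). ELF3, an epithelial transcription factor, rose (0.63, edgeR adjusted p = 0.00811), a call that ended without CEAR library 1 (edgeR adjusted p = 0.0535 at most).

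Stem cell genes showed no common direction. Of 23 intestinal stem cell and WNT targets 4 rose, 2 fell and 17 were not called. Among all tested genes 9.33% were higher and 7.34% lower. LGR5, the R-spondin receptor of intestinal stem cells, fell from 14, 19.9 and 19.2 CPM in number 1 of HER2R, CEAR and MKN45 to 8.32, 5.82 and 12.4 CPM in number 2 (log2 fold change -1.03, SE 0.215, edgeR adjusted p = 0.0168). Its ranges did not overlap, and the fall was deepest in CEAR. TNFRSF19, also called TROY, was the other member that fell (-0.81, edgeR adjusted p = 0.00478). OLFM4, a glycoprotein of crypt cells, rose (3.55, edgeR adjusted p = 0.00222), mostly in CEAR, where it went from 0.361 to 5.12 CPM. Its call ended without either CEAR library (edgeR adjusted p = 0.308 at most), with 2.15 as the smallest value. In number 1 of HER2R it stood at 0 CPM. LEF1, a WNT transcription factor, rose (1.52, edgeR adjusted p = 0.00811) but was not called without either MKN45 library (edgeR adjusted p = 0.0937 at most). As few as 1 member of the list was called higher without an MKN45 library.

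**Figure D3:**
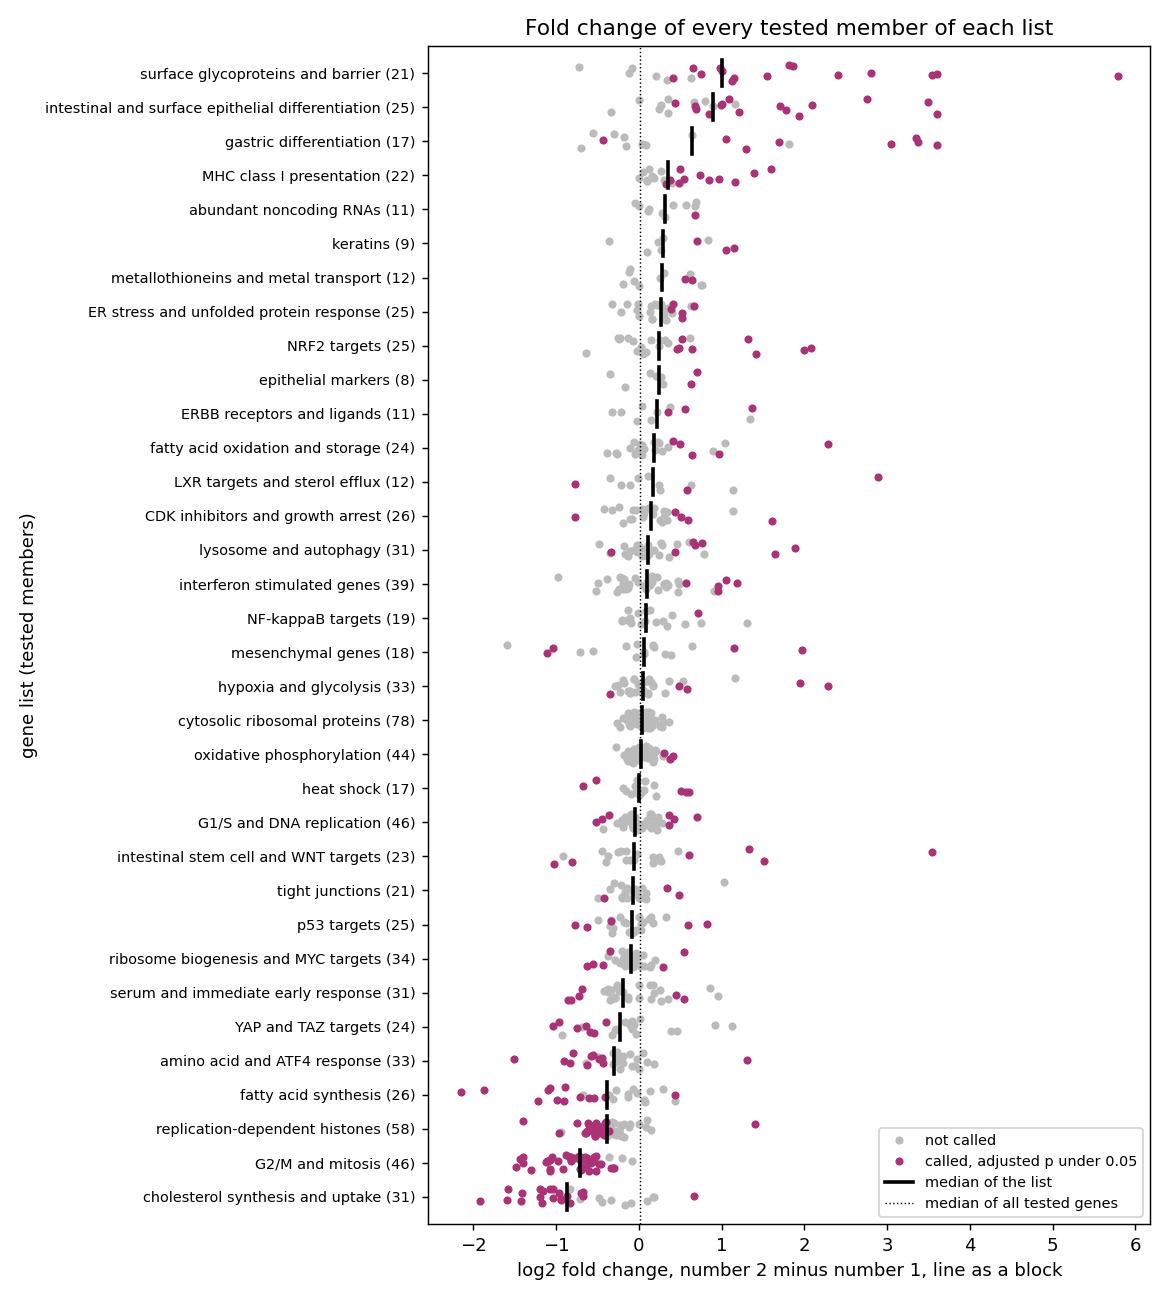
Log2 fold change of number 2 over number 1 (x axis) for each tested member of the gene lists with 8 or more tested members (rows in order of their median, number tested in brackets), coloured where called, with bars at the list medians and a dotted line at the median of all tested genes. The cholesterol, G2/M, histone and fatty acid lists have the lowest medians and the gastric, intestinal and surface glycoprotein lists the highest.

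Detoxification enzymes rose in part. Of 25 NRF2 targets 8 rose, 0 fell and 17 were not called, with a median of 0.24. As few as 4 rose without a CEAR or an MKN45 library, and among all tested genes 9.33% were higher. ABCC3, an exporter of conjugates and bile salts, went from 22.7, 49.7 and 36.9 CPM in number 1 of HER2R, CEAR and MKN45 to 116, 135 and 201 CPM in number 2, without overlap (log2 fold change 2.08, SE 0.183, edgeR adjusted p = 0.000947). AKR1B10, an aldo-keto reductase, went from 3.18, 21.9 and 8.66 CPM to 9.51, 79.4 and 46.6 CPM (2.0, SE 0.159, edgeR adjusted p = 0.000524). NQO1, a classical NRF2 target, was not called (0.32, edgeR adjusted p = 0.055), nor was GCLM, a subunit of the glutathione-making ligase (0.02, edgeR adjusted p = 0.94). AKR1C2, which has near-identical relatives, rose (1.32, edgeR adjusted p = 0.0198) but lost its call without either MKN45 library (edgeR adjusted p = 0.0796 at most), with 0.86 as its smallest value. Other conjugating enzymes had some of the largest rises, among them UGT2A3, a UDP-glucuronosyltransferase (2.66, edgeR adjusted p = 9e-04), and GSTA1, a glutathione transferase (2.9, edgeR adjusted p = 0.000478). UGT2B15, of the same family as UGT2A3, went from 0.739, 0.0964 and 0.461 CPM to 4.46, 1.75 and 10.7 CPM (3.75, SE 0.378, edgeR adjusted p = 0.00136), and its relatives are close in sequence too. Without an MKN45 library its value was 2.95 at the least. Its level in number 1 of CEAR (0.0964 CPM) rests on a few counts.

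Genes of MHC class I presentation rose in 11 of 22 members, fell in 0 (0 at an unadjusted p under 0.05 by edgeR) and were not called in 11, with a median of 0.35. HLA-B, a class I heavy chain, was at 21.3, 9.9 and 38.4 CPM in number 1 of HER2R, CEAR and MKN45 and at 44.1, 17.1 and 115 CPM in number 2. Each line was higher in number 2, and the lines overlapped across numbers (log2 fold change 1.16, SE 0.146, edgeR adjusted p = 0.00288). B2M, the light chain, went from 218, 206 and 266 CPM to 320.4, 266 and 397 CPM (0.5, SE 0.0902, edgeR adjusted p = 0.0099). HLA-C rose (0.74, edgeR adjusted p = 0.00592), and so did the immunoproteasome subunits PSMB9 (1.39, edgeR adjusted p = 0.00774) and PSMB8 (0.85, edgeR adjusted p = 0.0107). The peptide transporter gene TAP1 (0.13, edgeR adjusted p = 0.461) and the transactivator NLRC5 (0.1, edgeR adjusted p = 0.707) were not called. Without a CEAR or an MKN45 library as few as 5 of the 22 were higher. HLA genes are close copies, and the split of reads between them is uncertain. Of 39 interferon stimulated genes 5 rose, 0 fell and 34 were not called, with a median of 0.1. Both lists stood beside 9.33% of all tested genes higher and 7.34% lower.

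Some genes of amino acid supply fell. Of 33 genes of the ATF4 response 10 fell, 1 rose and 22 were not called, with a median of -0.3. SLC7A5, a transporter of large neutral amino acids, went from 138, 567 and 215 CPM in number 1 of HER2R, CEAR and MKN45 to 116, 241 and 92.5 CPM in number 2 (log2 fold change -0.91, SE 0.18, edgeR adjusted p = 0.0144). ATF4, the transcription factor, went from 117, 137 and 177 CPM to 90.8, 69.6 and 80.0 CPM, without overlap (-0.83, SE 0.14, edgeR adjusted p = 0.00806). DDIT3, the stress factor CHOP that ATF4 can induce, was the member that rose, from 7.24, 7.78 and 7.87 CPM to 16.3, 18.2 and 22.2 CPM (1.3, SE 0.132, edgeR adjusted p = 0.00138). Its 2 ranges were apart. The median step of the list was -0.06 in HER2R, -0.45 in CEAR and -0.46 in MKN45. As few as 4 members fell without a CEAR library and 6 without an MKN45 library, and up to 20 without a HER2R library. ASNS, asparagine synthetase (-0.79, edgeR adjusted p = 0.0482), and CHAC1, which degrades glutathione (-1.51, edgeR adjusted p = 0.0307), fell. ASNS lost its call without either CEAR library or either MKN45 library (edgeR adjusted p = 0.161 at most) and CHAC1 without either CEAR library or either MKN45 library (edgeR adjusted p = 0.134 at most), and DESeq2 did not call ASNS (adjusted p = 0.184) nor the legacy quasi-likelihood method of edgeR CHAC1 (adjusted p = 0.053). Without a CEAR library they had smallest values of -0.42 and -0.93.

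YAP and TAZ targets, genes that respond to cell contact and tension, fell in 7 of 24 members and rose in 0 (1 at an unadjusted p under 0.05), with a median of -0.22. CYR61, a matricellular protein, went from 91.2, 21.8 and 12.5 CPM in number 1 of HER2R, CEAR and MKN45 to 54.7, 12.6 and 7.5 CPM in number 2 (log2 fold change -0.75, SE 0.0934, edgeR adjusted p = 0.00273). Its step was nearly the same in the 3 lines, though its level differed widely between them. THBS1, thrombospondin, went from 136, 51.2 and 15.2 CPM to 74.7, 28.1 and 6.44 CPM (-0.97, SE 0.104, edgeR adjusted p = 0.00159). AJUBA, a LIM protein that binds kinases of the pathway, fell (-1.04, edgeR adjusted p = 0.00392). CTGF, a much used target of the pathway, was not called (-0.93, edgeR adjusted p = 0.0897), with a step of 0.73 in HER2R, -1.52 in CEAR and -1.03 in MKN45. The median step of the list was 0.01 in HER2R, -0.35 in CEAR and -0.47 in MKN45, and between 4 and 11 members fell with a library left out, the fewest without a CEAR or MKN45 library. Of 31 serum and immediate early response genes 4 fell, 2 rose and 25 were not called. Between 1 and 11 of them were lower with a library left out, the most without a HER2R library. Both lists stood beside 7.34% of all tested genes lower and 9.33% higher.

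Several smaller groups held a few called genes, beside 9.33% of all tested genes higher and 7.34% lower. Of 33 hypoxia and glycolysis genes 4 rose, 1 fell and 28 were not called, near the shares over all genes, with as few as 2 higher without a HER2R or a CEAR library. NDRG1, a stress-responsive protein, went from 58.5, 19.5 and 22.1 CPM in number 1 of HER2R, CEAR and MKN45 to 192, 93.3 and 80.7 CPM in number 2, without overlap (log2 fold change 1.94, SE 0.115, edgeR adjusted p = 0.000257). Of 31 lysosome and autophagy genes 6 rose, 1 fell and 24 were not called, with as few as 2 higher without a CEAR or an MKN45 library. CTSS, a lysosomal protease, went from 24.3, 13.6 and 37.5 CPM to 66.5, 50.5 and 113 CPM (1.64, SE 0.106, edgeR adjusted p = 0.000286). Of 25 genes of the unfolded protein response 5 rose, 0 fell and 20 were not called, with as few as 1 higher without a HER2R or a CEAR library, up to 7 without an MKN45 library and 10 by DESeq2. HERPUD1, which serves in degradation at the endoplasmic reticulum, was at 53.2, 85.3 and 82.6 CPM and then at 96.6, 146 and 108 CPM (0.67, SE 0.106, edgeR adjusted p = 0.00674). The ranges of CTSS did not overlap between the numbers, nor did those of HERPUD1. Of 17 heat shock genes 3 rose, 2 fell and 12 were not called.

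The remaining lists were as follows, beside 9.33% of all genes higher and 7.34% lower. Of 78 cytosolic ribosomal protein genes edgeR called 0, with 2 higher and 1 lower at an unadjusted p under 0.05, while DESeq2 called 2 higher and 1 lower and limma-voom 0. Their median step was 0.19 in HER2R, 0.1 in CEAR and -0.2 in MKN45, and MKN45 had the lowest step in 77 of them. Of 44 oxidative phosphorylation genes 3 rose, and 0 or 1 with any library left out. Of 34 ribosome biogenesis and MYC targets 2 rose and 4 fell, and of 21 tight junction genes 2 rose and 1 fell. Of 19 NF-kappaB targets 1 rose, of 12 metallothionein and metal transport genes 2, of 11 ERBB receptors and ligands 3 (1 with any library left out) and of 11 abundant noncoding RNAs 1. Of 18 mesenchymal genes 2 rose, S100A4 among them, and 2 fell. CD68, a lysosomal glycoprotein on the myeloid list, rose (1.03, edgeR adjusted p = 0.0411), but was not called without either CEAR library or either MKN45 library (edgeR adjusted p = 0.276 at most) or with library size alone (edgeR adjusted p = 0.0547), with 0.57 as its smallest value. COL1A1, a collagen and the fibroblast marker that was tested, fell from 7.44, 1.69 and 1.68 CPM to 3.55, 1.1 and 0.591 CPM in HER2R, CEAR and MKN45 (-1.04, edgeR adjusted p = 0.0245), a call lost without either HER2R library or either MKN45 library (edgeR adjusted p = 0.0845 at most).

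Among the remaining genes of the largest changes, SOD3, an extracellular superoxide dismutase, rose from 4.64, 18.5 and 4.31 CPM in number 1 of HER2R, CEAR and MKN45 to 34, 219 and 14.6 CPM in number 2 (log2 fold change 2.81, SE 0.29, edgeR adjusted p = 0.0014). GLDN, gliomedin (3.28, edgeR adjusted p = 0.0047), PDE4C, a cyclic AMP phosphodiesterase (2.99, edgeR adjusted p = 0.00391), and LGALS7B, a galectin with a near-identical copy (3.35, edgeR adjusted p = 0.000478), rose as well. With a library left out GLDN was 2.23 at the least (an MKN45 library), PDE4C 3.75 at the most (a HER2R library) and LGALS7B 3.97 at the most (a CEAR library). LGALS7B had 3 counts in number 1 of HER2R (0.0764 CPM), so its fold there is loose. SYNE1, a protein of the nuclear envelope, fell from 66.4, 53.5 and 37.5 CPM to 19.6, 27 and 11.5 CPM (-1.48, SE 0.155, edgeR adjusted p = 0.00147). TNFAIP8L1 fell in all 3 lines (-1.55, edgeR adjusted p = 0.00119). FHL1, a LIM protein, fell most in HER2R, from 40.6 to 7.68 CPM (-1.53, edgeR adjusted p = 0.0107), and its value was -0.98 at the least with a HER2R library left out.

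**Figure D4:**
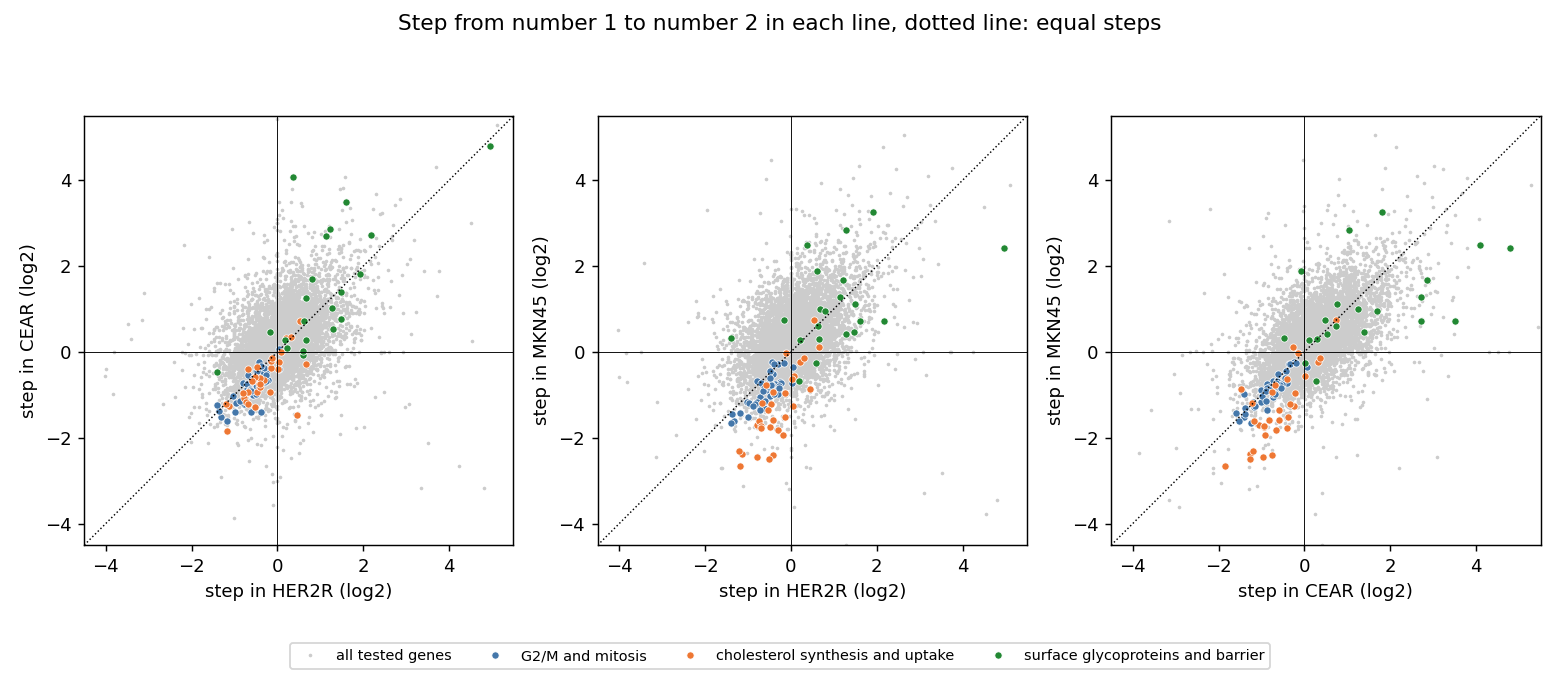
Step of each tested gene in 1 line (x axis, log2) against its step in another (y axis, log2), with 3 lists coloured and a dotted line where steps are equal. Between 14 and 18 genes a panel lie outside the axes. Most cholesterol genes and many G2/M genes lie below the dotted line where MKN45 is on the y axis, which had the lowest step in 26 of 31 and 32 of 46, and surface glycoproteins lie mostly above 0 on both axes.

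The step of HER2R departed from the step of the other lines for 22 genes (0.147% of tested genes), 10 with a higher and 12 with a lower step. SLC7A11, the cystine importer, went from 64.6 to 110.1 CPM in HER2R, from 31.7 to 13.3 CPM in CEAR and from 84.4 to 30.7 CPM in MKN45, a difference in step of 2.13, SE 0.18, edgeR adjusted p = 0.00496. NNMT, which methylates nicotinamide, stood at 49.1 and 51.3 CPM in HER2R and went from 6.26 to 0.742 CPM in CEAR and from 5.83 to 0.387 CPM in MKN45 (3.49, SE 0.321, edgeR adjusted p = 0.0073). Both were called under each of the 5 other settings tried. DDIT4, an inhibitor of mTORC1 induced by stress, went from 190.3 to 279.7 CPM in HER2R and was lower in number 2 of the other lines (1.23, SE 0.158, edgeR adjusted p = 0.0387). STC2, a secreted glycoprotein, had the same pattern (1.3, edgeR adjusted p = 0.041), and lost its call with RLE size factors, a filter at 1 CPM or limma-voom. TSPAN1, of the gastric list, went from 196 to 220.0 CPM in HER2R, a smaller step than in the other lines (-1.34, SE 0.155, edgeR adjusted p = 0.0227). The hypoxia list, with a median step of 0.35 in HER2R, 0.01 in CEAR and -0.33 in MKN45, held 2 of the 22 genes, and MKN45 had the lowest step for 27 of its 33 members.

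The step of CEAR departed for 12 genes (0.0802%). MUC5AC, at 99.6 CPM in number 1 of CEAR, had a smaller step there than in the other lines (-2.46, SE 0.256, edgeR adjusted p = 0.00225). PRSS2, a trypsinogen with close copies, went from 251 to 198 CPM in CEAR, from 1.89 to 5.82 CPM in HER2R and from 2.89 to 11.8 CPM in MKN45 (-2.2, SE 0.246, edgeR adjusted p = 0.00348). Both calls ended with library size alone as the scaling (edgeR adjusted p = 0.0702 and 0.112). HIST2H3C, a histone gene with copies, went from 163 to 22.5 CPM in CEAR, from 263 to 239 CPM in HER2R and from 157 to 149 CPM in MKN45 (-2.75, SE 0.231, edgeR adjusted p = 0.00042).

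Outside the lipid genes, MKN45 had a higher step than the other lines for CTSE, a cathepsin of the gastric surface (1.26, edgeR adjusted p = 0.0352), MAOB, a monoamine oxidase (1.35, edgeR adjusted p = 0.0332), EPHB2, an ephrin receptor (1.75, edgeR adjusted p = 0.0332), and SPRR1A, a cornified envelope protein (1.8, edgeR adjusted p = 0.0253). CTSE stood at 91.1 CPM in number 1 and 255 CPM in number 2 of MKN45, against 61.3 and 83.9 CPM in HER2R and 184 and 184 CPM in CEAR. GCNT3, a mucin-type glycosyltransferase, went from 17.5 to 7.35 CPM in MKN45 and was higher in number 2 of the other lines (-2.41, SE 0.316, edgeR adjusted p = 0.00932). AK4, a mitochondrial adenylate kinase, went from 33.3 to 22.9 CPM in MKN45, from 172 to 287 CPM in HER2R and from 15.4 to 49.5 CPM in CEAR (-1.73, SE 0.299, edgeR adjusted p = 0.0357). Each of these 6 calls ended with library size alone and with a filter at 1 CPM.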

How the data were processed

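Total RNA of 6 libraries, 2 for each of 3 lines, was sequenced after ribosomal RNA depletion with a stranded kit, per the labels' protocols. The authors deposited 1 table of whole-number counts per gene symbol, with no normalization. The sources used here do not name the aligner, the counter or the annotation, nor do they state whether counting used strand. The submitters' processing notes name limma and GRCh38 with no role.

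Columns were matched to samples by title, and 0 columns were left unmatched. The samples were paired within each line because libraries 1 and 2 come from the same cell line. Symbols with low counts were removed by filterByExpr, and the counts were fitted with edgeR 4.0.16 in R 4.3.3 (TMM, quasi-likelihood, line as a block, Benjamini-Hochberg adjustment). DESeq2 1.42.0 and limma-voom (limma 3.58.1) were alternatives, beside other scalings, other filters, a test against a 1.5-fold change and each library left out in turn. The difference of a line's step was tested with a term for the number within that line. Each SE printed is the absolute log2 value divided by the square root of the F statistic of its test. It is an approximation, above all at low counts. A step in a single line carries no replicate and no test. The procedure was tested on simulated data.

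The members and lists were chosen with earlier results of these data known. Of 950 list symbols 937 matched directly and 11 by synonym, 1 was already in its list and 1 was not matched. Named genes were a fixed set, the 12 largest changes each way at 5 CPM or more, up to 4 called members per direction of a list and up to 6 per direction for each step. Others were chosen after their values were seen, and a few genes of these sets are not reported here. Gene positions are from the GENCODE annotation of GRCh38 and promoter sequences from RefSeq (GRCh38.p14).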

Additional observations from a re-analysis of the deposited data

Results flagged for a closer look

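Each gene here had a step, log2 of number 2 over number 1, that departed from the step of the other lines at an edgeR adjusted p under 0.05, and the value is the difference in step. In HER2R it was 3.49 for NNMT, 2.13 for SLC7A11, 1.82 for HIST2H4B, 1.32 for AMIGO2 and 1.3 for STC2. It was -2.19 for DNAH1, -1.81 for SCARNA10, -1.62 for SLC22A23 and -1.57 for LRP1. NNMT, SLC7A11, DNAH1, SCARNA10 and SLC22A23 were called under all 5 other settings. HIST2H4B and AMIGO2 were lost with RLE size factors or a filter at 1 CPM, and STC2 and LRP1 with these and limma-voom. SULT1A4 (11.3), RNU1-4 (-23.3) and RNU1-2 (-23.1) had libraries at or near 0 counts. Their fitted values vary with the prior count and set no bound. SULT1A4 was lost with limma-voom and the other 2 with DESeq2.

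In CEAR the difference was -2.46 for MUC5AC, -2.75 for HIST2H3C, -2.2 for PRSS2 and 3.32 for SLX1B, and -12.7 for COMMD3-BMI1, a read-through gene near 0 counts. With library size alone each of these but HIST2H3C was lost, and PRSS2 with limma-voom too.

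In MKN45 it was -2.01 for FADS2, -1.81 for HMGCS1, -1.6 for SQLE and -1.18 for DHCR7 among the lipid genes. It was 2.58 for FAM83E, 1.8 for SPRR1A, 1.75 for EPHB2, 1.72 for SPNS2, 1.35 for MAOB and 1.26 for CTSE. It was -1.74 for CEACAM6, -2.41 for GCNT3 and -1.73 for AK4. Of these FADS2 and HMGCS1 were called under all 5 other settings. RNU1-28P, at -12.1, was called in all 5 too, with a value that depends on the prior count. Copies of the U1 RNA, histone, SULT1A, SLX1 and trypsinogen genes are near-identical, and reads may be split between them.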

How the results depend on the processing

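Without the replicate block that pairs the libraries of a line, 0 genes were called higher and 0 lower, and the smallest adjusted p was 0.13. Tested against a fold of 1.5, 158 were higher and 36 lower. With each library left out in turn, 564 to 1529 were higher and 450 to 1187 lower, the fewest without CEAR library 1 and the most without HER2R library 1. The other settings moved both counts by less than 1.5 times, and DESeq2 called 2539 genes, of which 2267 were shared with edgeR. No direction reversed under any setting run for the 154 genes that the naming rule chose.

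The step calls depended more on the setting. For HER2R, 22 became 11 with a filter at 1 CPM and 41 with DESeq2. For CEAR, 12 became 21 with RLE size factors and 2 with library size alone. For MKN45, 32 became 5 with RLE size factors, 3 with library size alone and 3 with a filter at 1 CPM. The cause was not tested. Libraries were not left out of the step tests, since no residual degree of freedom would remain. With 2 residual degrees of freedom the comparison relies on the spread shared between genes, and at 0.0177 to 0.0255 CPM per count the lowest genes rest on a few counts.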

Other observations

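Small nucleolar and Cajal body RNAs, taken by symbol (SNORA, SNORD and SCARNA) after their values were seen, guide the modification of ribosomal and spliceosomal RNA. Of 65 tested, 26 were called higher in number 2 and 1 lower, beside 9.33% and 7.34% of all tested genes, with a median log2 fold change of 0.9. Their median step was 0.24 in HER2R, 1.04 in CEAR and 1.17 in MKN45. Of 23 spliceosomal RNA genes and copies (RNU and RNVU), 2 were higher and 5 lower, with median steps of -0.72, 0.61 and 0.33. Among zinc finger genes (ZNF) 16 of 429 were higher and 10 lower.

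More symbols had a count in number 2 than in number 1 of each line, with 17099 and 17440 in HER2R, 16872 and 17257 in CEAR and 17150 and 17549 in MKN45, in the order number 1 and 2. The MKN45 number 1 library was the deepest of the 6. Of 12892 tested genes at 1 CPM or more, 1219 were higher and 1070 lower. Of 2066 below it, 176 were higher and 28 lower.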
